A study of Arabidopsis thaliana with 6 samples.

Results

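The genes described here are 29 Aux/IAA genes and 7 auxin-inducible GH3 genes of Arabidopsis thaliana, 36 of the 44200 features in the count table. They were picked by gene identifier as members of these gene families, with earlier results of these data known. The samples were 6 libraries of polyadenylated RNA from whole plantlets, 3 of wild type Col-0 and 3 labelled nsra/b, a double mutant of the nuclear speckle RNA binding proteins NSRa and NSRb that combines a T-DNA insertion line for each gene in the Col-0 background. By the sample records, plantlets of both genotypes grew in long days on solid MS medium, were moved at day 14 to mock medium without added auxin for 24 h and were collected at day 15; the methods of the study give a younger age. The comparison asks how the NSR proteins bear on auxin-regulated genes when no auxin is supplied. Each mutation is represented by a single insertion line, and whole plantlets mix roots, leaves and shoot tips.

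Aux/IAA proteins are short-lived repressors of auxin responses. They bind the ARF transcription factors and bring in the TOPLESS corepressors, so that ARF target genes stay off. Auxin binds between a TIR1/AFB receptor, an F-box subunit of an SCF ubiquitin ligase, and a short degron in domain II of the Aux/IAA protein, which is then ubiquitinated and degraded, and many Aux/IAA genes are themselves ARF targets. Auxin-inducible GH3 genes encode enzymes that join indole-3-acetic acid (IAA), the main natural auxin, to amino acids, which lowers the free hormone. Both families are known as early auxin response genes.

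Each library held between 25936176 and 32578330 counted reads, so that 3 counts, taken as the detection floor, corresponded to between 0.0925 and 0.115 CPM, the unit of counts scaled to a common library total. The genotype labels could not be checked on the mutated genes, since no source used here pairs NSRa or NSRb with a gene identifier. In Col-0 the gene AT1G76940, whose annotation names RRM-type RNA binding, gave 396, 519 and 441 reads, and in the libraries labelled nsra/b it gave 4987, 5898 and 5577. AT1G21320, annotated for nucleic acid binding, gave 17, 25 and 25 against 81, 78 and 88 reads. Whether these are the mutated genes was not determined, and every direction given below rests on the labels.

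The coding sequence of the degron core was looked for in the annotated coding sequences, to separate the Aux/IAA genes that hold the exact core from those that do not. A degron with a changed core would be missed by this search. The codons searched were GGN, TGG, CCN and CCN in a row, in frame on the coding strand, which stand for glycine, tryptophan, proline and proline. They were present in 23 of the 29 Aux/IAA genes and absent from IAA20, IAA30, IAA31, IAA32, IAA33 and IAA34. For IAA29, they were present in 2 of its 3 annotated transcripts. The windows below, each of 30 bases from the TAIR10.1 genome with the searched letters in capitals, are those of the 5 Aux/IAA genes on which the comparison of genotypes turns (IAA2, IAA9, IAA14, IAA17 and IAA28) and of 3 relatives with similar windows (IAA1, IAA7 and IAA16).
IAA1: caaatcgttGGATGGCCTCCAgtgagatct
IAA2: caaatcgttGGTTGGCCACCAgtgagatct
IAA9: caaattgtcGGTTGGCCTCCAgtgagatcc
IAA7: caagtggtgGGATGGCCACCTgtgaggaac
IAA14: caagtggtgGGTTGGCCACCGgtgaggaac
IAA16: caagttgtgGGATGGCCACCGgtacgatct
IAA17: caagttgtgGGATGGCCACCGgtgagatca
IAA28: ccagtggtgGGATGGCCGCCGgtgagatca

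The windows of IAA2 (chr3:8181387-8181416, minus strand), IAA9 (chr5:26255104-26255133, plus strand), IAA14 (chr4:8349478-8349507, minus strand), IAA17 (chr1:1136938-1136967, plus strand) and IAA28 (chr5:9033812-9033841, plus strand) all lie in coding exons. IAA1 and IAA2 shared 28 of the 30 bases, as did IAA7 and IAA14, and IAA16 and IAA17 shared 27. The closest pair in the family was IAA3 and IAA4, whose windows were identical over all 30 bases. Such closeness did not extend to whole transcripts. At most 1.4% of the 50-base windows in the exons of a member (GH3.4) occurred elsewhere in the genome, so reads of these genes could mostly be placed on 1 gene.

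The members spanned a wide range of transcript levels, compared here in TPM, a unit that takes transcript length into account. IAA16 (AT3G04730) was the highest, at 195, 203 and 207 TPM in Col-0 and 189.6, 196 and 194 TPM in the libraries labelled nsra/b. IAA9 had 155, 149.6 and 150.2 against 167, 160 and 167 TPM, and IAA8 had 148, 147 and 149.6 against 154, 146 and 152 TPM. IAA9 and IAA8 overlapped in their ranges over the 6 libraries, and their order turned with the longest transcript as the length, whereas IAA16 stood above both with either length. IAA7 (AT3G23050), known as AXR2 from mutants with a stabilised protein that are auxin resistant, had 99.6, 101 and 96.4 against 97.3, 102 and 105 TPM. IAA2 had 69.2, 74.5 and 72.5 against 76.9, 79.7 and 85.0 TPM, and IAA4 had 65.7, 67.5 and 70.5 against 66.1, 67.8 and 69.2 TPM. IAA7 did not overlap with IAA2 or IAA8, while IAA2 and IAA4 overlapped.

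**Figure D1:**
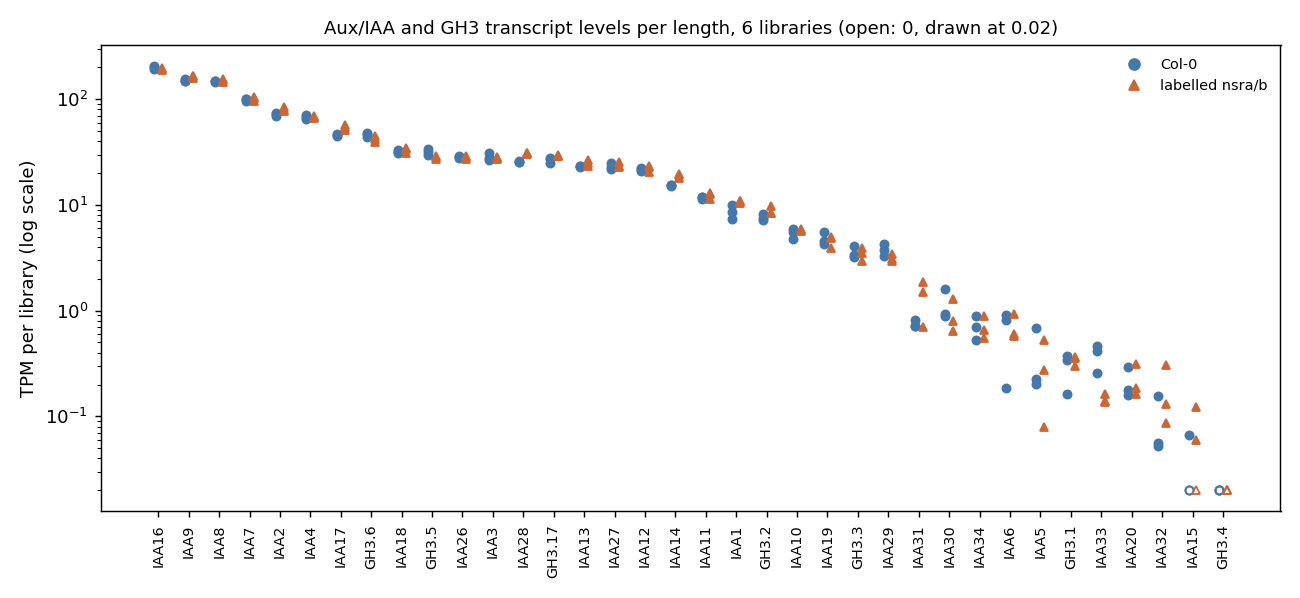
Transcript level of each of the 36 members in TPM on a log axis, ordered by the mean over 6 libraries, with Col-0 as circles and libraries labelled nsra/b as triangles and levels of 0 drawn as open symbols at the foot of the plot. IAA16 leads at 189.6 to 207 TPM, and GH3.4 is at 0 in every library.

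The 4 highest genes, IAA16, IAA9, IAA8 and IAA7, held between 58.4% and 59.0% of the summed Aux/IAA TPM in Col-0 and between 56.9% and 57.6% in the libraries labelled nsra/b. The 6 Aux/IAA genes without the degron letters were low throughout. Together they held between 0.281% and 0.369% of the Aux/IAA sum. Among the GH3 genes, GH3.6, GH3.5 and GH3.17 held between 88.1% and 90.4% of the sum. The summed Aux/IAA level was 1013, 1024 and 1032 TPM in Col-0 and 1055, 1054 and 1086 TPM in the libraries labelled nsra/b, with no overlap between genotypes. The summed GH3 level was 109, 117 and 121 against 107, 112 and 117 TPM and overlapped. The Aux/IAA sum was thus higher in the libraries labelled nsra/b while the share of its 4 highest genes was lower. The sums include the genes compared singly below and are not separate support for them, and no test was made on the sums. In RNA from whole plantlets, fewer cells that express a gene and less RNA of it per cell cannot be told apart.

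Of the 36 members, 30 passed the filter on low counts and were tested with edgeR's quasi-likelihood test, with p-values adjusted over all 21606 tested features and a threshold of 0.01. The test called 5 members higher in the libraries labelled nsra/b, all Aux/IAA genes (IAA2, IAA9, IAA14, IAA17 and IAA28), and 1 lower, GH3.5. The 6 called members were 20.0% of the 30 tested, where 8.86% of all tested features were called. In the upward direction, the share was 16.7% of members against 5.28% of all features, and in the downward direction 3.33% against 3.58%. Among features over 10 CPM, 6 of 19 members (31.6%) and 11.8% of all features were called, with 26.3% of members and 6.66% of features higher and 5.26% and 5.11% lower. The number of called members moved with the test. limma voom called the same 6 (8.68% of all features), DESeq2 called 4 of them (5.18%), and edgeR at an adjusted p-value under 0.05 called 7 higher and 2 lower (14.9%). Bonferroni adjustment of the edgeR p-values left 0 members (2.29% of all features), as did a fit with the coefficient of biological variation set to 0.1 (0.940%). A larger share of features was called among those over 10 CPM than among all tested (11.8% against 8.86%), and 19 of the 30 tested members were over 10 CPM. The share of members called was above that of features in both sets, and the reason was not tested. The changes were small, since each of the 6 was below a log2 fold change of 0.30 in size. The median log2 fold change was 0.05 over the tested members and -0.00 over all tested features. The log2 fold change was above 0 in 20 of the 30 members and in 10802 of all 21606 features.

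IAA14 (AT4G14550), known as SLR from a stabilised mutant form that lacks lateral roots, had 18.2, 18.7 and 18.0 CPM in Col-0 and 23.0, 21.3 and 23.0 CPM in the libraries labelled nsra/b. The ranges were well apart, and the level rose by 22.2% (log2 fold change 0.29, SE 0.0511, edgeR adjusted p = 9.19e-05). IAA28 (AT5G25890), of which a stabilised form likewise suppresses lateral root formation, had 22.4, 22.4 and 22.6 against 27.1, 26.9 and 26.7 CPM. It had the tightest replicates of the called members, and rose by 19.6% (log2 fold change 0.26, SE 0.0452, edgeR adjusted p = 8.11e-05). IAA17 (AT1G04250), known as AXR3 from mutants with a stabilised protein and altered auxin response and root growth, had 38.8, 37.4 and 37.5 against 42.2, 47.7 and 45.1 CPM. It rose by 19.0% (log2 fold change 0.25, SE 0.0408, edgeR adjusted p = 2.87e-05), with the lowest library labelled nsra/b above the highest Col-0 library. IAA14, IAA17 and IAA28 stayed called when any single library was left out.

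IAA2 (AT3G23030) had 59.6, 64.0 and 61.6 CPM in Col-0 and 65.4, 68.4 and 72.2 CPM in the libraries labelled nsra/b. The promoter of IAA2 is widely used in auxin reporters. The genotypes did not overlap, but the closest libraries were 64.0 and 65.4 CPM, and the fitted level was 11.1% higher (log2 fold change 0.15, SE 0.0356, edgeR adjusted p = 0.0026). IAA9 (AT5G65670) is among the 3 most abundant members by TPM. It had 210.1, 202 and 201 against 223, 216 and 224 CPM and was 8.05% higher (log2 fold change 0.11, SE 0.0256, edgeR adjusted p = 0.00212). Both calls were lost when certain libraries were left out. IAA2 was no longer called without Col-0 replicate 1, Col-0 replicate 3 or nsra/b replicate 3 (edgeR adjusted p = 0.0307, 0.0155 and 0.0388), nor with DESeq2 (adjusted p = 0.0206). IAA9 was no longer called without Col-0 replicate 2, Col-0 replicate 3 or nsra/b replicate 3 (edgeR adjusted p = 0.0228, 0.022 and 0.013).

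**Figure D2:**
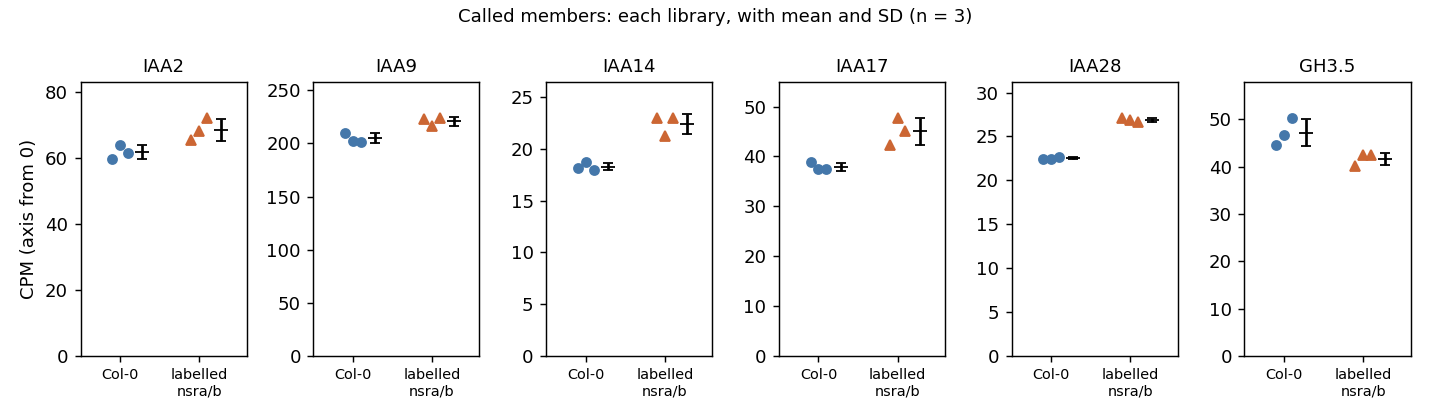
CPM of the 6 called members in each library, on axes that start at 0, with the mean and SD (n = 3 libraries per genotype) in black beside the points. In each panel the 3 libraries labelled nsra/b (triangles) lie on 1 side of the 3 Col-0 libraries (circles), above for the 5 Aux/IAA genes and below for GH3.5.

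Among the GH3 genes, GH3.5 (AT4G27260) conjugates IAA and also acts on salicylic acid. It had 44.5, 46.8 and 50.3 CPM in Col-0 and 40.1, 42.4 and 42.4 CPM in the libraries labelled nsra/b. It fell by 11.8% (log2 fold change -0.18, SE 0.0405, edgeR adjusted p = 0.0016), and the call was lost without Col-0 replicate 3, its highest library (edgeR adjusted p = 0.0367), and with DESeq2 (adjusted p = 0.0126). GH3.6 (AT5G54510), known as DFL1 from a dwarf mutant in light, had 64.4, 69.8 and 67.9 against 56.9, 61.7 and 65.3 CPM, with overlapping ranges and a log2 fold change of -0.13 that missed the threshold (edgeR adjusted p = 0.0149). GH3.17 (AT1G28130), which conjugates IAA to glutamate, had 43.1, 47.0 and 47.8 against 49.4, 50.8 and 50.1 CPM. Its ranges did not overlap, and its log2 fold change of 0.12 also missed the threshold (edgeR adjusted p = 0.0236).

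GH3.17 stood higher relative to GH3.5 in the libraries labelled nsra/b. The ratio of GH3.17 to GH3.5 in TPM was 0.833, 0.864 and 0.818 in Col-0 and 1.06, 1.03 and 1.02 in the libraries labelled nsra/b. With the longest annotated transcript of each gene as its length, in place of all its exons, the ratio was 0.98, 1.02 and 0.962 against 1.25, 1.21 and 1.2. The genotypes did not overlap with either length, but which gene was higher in Col-0 depended on the length. The ratio of GH3.5 to GH3.6 overlapped, at 0.661 to 0.729 against 0.639 to 0.694. The comparison of GH3.17 with GH3.5 was chosen after the values were seen and has no test.

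**Figure D3:**
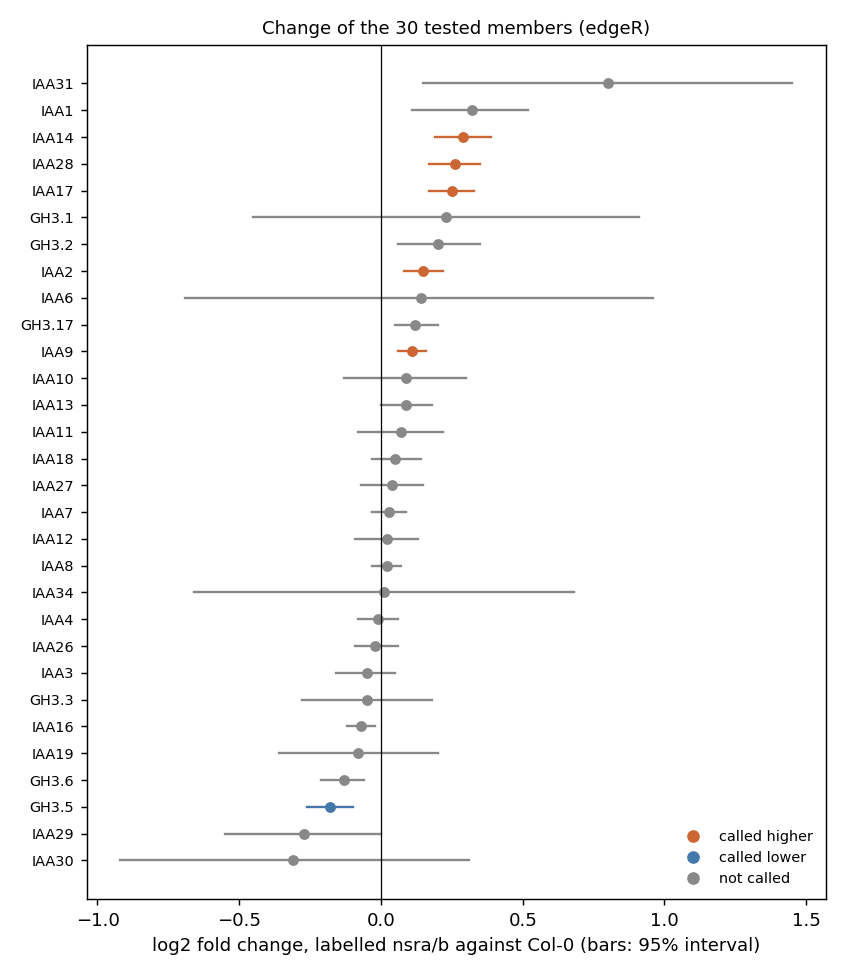
Log2 fold change, libraries labelled nsra/b against Col-0, of the 30 tested members with 95% intervals, coloured by the call at an adjusted p-value of 0.01. Well expressed members such as IAA8 have short intervals around 0, and members under 1 CPM such as IAA6 have intervals more than 1 unit wide.

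The other 24 tested members were not called, and their intervals show what these libraries could resolve. For the 13 of them over 10 CPM, log2 fold changes lay between -0.13 and 0.20, and the 95% intervals reached from -0.21 to 0.35. Changes beyond that range were thus outside the intervals of these 13 genes. Among them was IAA16, the most abundant member, at 251, 259.9 and 262 against 240.3, 251 and 245 CPM (log2 fold change -0.07, edgeR adjusted p = 0.0523), where the genotypes did not overlap although their nearest libraries both round to 251 CPM. For the 6 uncalled members between 1 and 10 CPM the intervals reached from -0.55 to 0.52, and for the 5 under 1 CPM from -0.92 to 1.45. Of all 30 tested members, 13 had an unadjusted edgeR p-value under 0.05, as did 5762 of all 21606 tested features. In 10 members (33.3%) the genotypes did not overlap, where 30.0% of all tested features did not overlap.

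The largest uncalled differences were in low members. IAA31 (AT3G17600) lacks the degron letters and is a slowly degraded member of the family. It had 0.409, 0.462 and 0.396 CPM in Col-0 and 1.04, 0.391 and 0.833 CPM in the libraries labelled nsra/b, so that 1 of these was lower than every Col-0 library (log2 fold change 0.80, SE 0.32, edgeR adjusted p = 0.0936). IAA1 (AT4G14560), a relative of IAA2 that is strongly auxin inducible, had 5.98, 4.44 and 5.11 against 6.42, 6.57 and 6.2 CPM. Its ranges did not overlap, and its log2 fold change of 0.32 missed the threshold (edgeR adjusted p = 0.0265) but passed it without Col-0 replicate 1, the highest Col-0 library (edgeR adjusted p = 0.00662). In the other 5 fits with a library left out it missed the threshold, and its log2 fold change came to 0.21 (edgeR adjusted p = 0.221) without Col-0 replicate 2, and DESeq2 did not call it (adjusted p = 0.171). IAA29 (AT4G32280) had 3.05, 3.45 and 2.67 against 2.35, 2.51 and 2.73 CPM (log2 fold change -0.27, edgeR adjusted p = 0.197). IAA29, whose transcript is known to rise in shade, thus overlapped between genotypes. IAA30 (AT3G62100) had 0.557, 0.586 and 0.989 against 0.5, 0.814 and 0.4 CPM (log2 fold change -0.31, edgeR adjusted p = 0.571), and GH3.1 had 0.483, 0.524 and 0.231 against 0.423, 0.521 and 0.5 CPM (log2 fold change 0.23, edgeR adjusted p = 0.722). Both overlapped, and both came to a value of the other sign without Col-0 replicate 3 (log2 fold changes of 0.01 for IAA30 and -0.06 for GH3.1).

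IAA19 and GH3.3, which are known for strong induction by auxin, were low in both genotypes. IAA19 (AT3G15540), known as MSG2 from mutants impaired in tropic bending of the hypocotyl, had 3.06 ± 0.447 CPM in Col-0 and 2.89 ± 0.379 CPM in the libraries labelled nsra/b (SD, n = 3, log2 fold change -0.08, 95% interval -0.36 to 0.20). GH3.3 had between 4.35 and 5.44 against between 3.92 and 5.17 CPM (log2 fold change -0.05, 95% interval -0.28 to 0.18).

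The remaining 6 members were too low to test. In Col-0 the counts of IAA5 were 3, 11 and 3, and in the libraries labelled nsra/b they were 1, 8 and 4, IAA20 had 3, 6 and 3 against 3, 6 and 3, and IAA15 had at most 2 counts in any library. These values sat near the floor of 3 counts. IAA32 had 5, 2 and 2 against 4, 11 and 3 counts, and GH3.4 had 0 counts in all 6 libraries, which allows a level of up to 0.0925 to 0.115 CPM, depending on the library. IAA33 (AT5G57420) had 6, 4 and 6 against 2, 2 and 2 counts. Its genotypes did not overlap, but the ratio of the summed rates was 0.388 with an exact 95% counting interval of 0.124 to 1.04, and an edgeR fit without the filter gave an adjusted p of 0.316. IAA20, IAA32, IAA33 and 3 tested members, IAA30, IAA31 and IAA34, make up all of the Aux/IAA genes without the degron letters. IAA34 overlaps AT1G15060 on the same strand, and reads shared by both may not have been counted.

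Set against the degron, all 5 called Aux/IAA genes were among the 21 tested genes that carry the degron letters and none among the 3 tested genes that lack them. Those 3 genes were all under 1 CPM, where the test could call little, so no contrast follows from these counts.

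The promoters were searched for the auxin response element, the core of the sites that ARF proteins bind, over 1000 bases before the annotated start of each gene in TAIR10.1. The letters were TGTCTC and TGTCGG on both strands, which share their initial letters TGTC. Either was present in 21 of the 29 Aux/IAA genes (72.4%) and 5 of the 7 GH3 genes (71.4%), and in 48.3% of 27443 protein-coding genes. TGTCTC was in 58.6% of the Aux/IAA genes and 39.6% of protein-coding genes, and TGTCGG in 27.6% and 14.6%. Among the 7 GH3 genes TGTCTC was in 71.4%, and TGTCGG in 1 gene (14.3%), close to its share of protein-coding genes. Genes with both were counted in each. Of the called genes, IAA2, IAA28 and GH3.5 held a match, of which 1 per gene is shown here in capitals in windows of 30 bases. The matches shown begin 792, 555 and 47 bases before the annotated start, and IAA28 held a further TGTCGG at 652 bases and GH3.5 a further TGTCTC at 546 bases.
IAA2: gaataattaaaaGAGACAtacacataagaa
IAA28: gatacatttcttTGTCTCatgagtcacggt
GH3.5: tcttccttattgTGTCTCtactctctactt

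The window of IAA2 lies at chr3:8182870-8182899 on the minus strand and holds the reverse complement of TGTCTC. Those of IAA28 and GH3.5 lie at chr5:9032637-9032666 and chr4:13653520-13653549 on the plus strand. No match was found in the windows of IAA9, IAA14 and IAA17, which says only that these letters are not there. Of the 22 tested members with a match, 2 were called higher and 1 lower, and of the 8 without one, 3 were called higher. Closely related members shared longer runs that include TGTCTC or its reverse complement, of which the run shared by IAA6 and IAA19, tatgtctctcatgtgaccga, was 20 bases long, with the match 179 and 184 bases before their starts. IAA20 and IAA30 shared 18 bases, ctgtctcatcattccacc, with the match 69 and 56 bases before their starts. Neither IAA6 nor IAA19 nor IAA30 was called.

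Several called members stand beside another Aux/IAA gene in a head-to-head pair with 1 gene between, which allows a comparison with a neighbour. IAA14 and IAA1 are 10732 bases apart on chromosome 4, and both had positive log2 fold changes (0.29 and 0.32), of which only that of IAA14 was called. IAA2 and IAA7 are 12510 bases apart on chromosome 3. The ratio of IAA2 to IAA7 in TPM was 0.695, 0.738 and 0.752 in Col-0 and 0.791, 0.779 and 0.809 in the libraries labelled nsra/b. IAA3 and IAA17 are 6388 bases apart on chromosome 1, and the ratio of IAA3 to IAA17 was 0.573, 0.694 and 0.616 against 0.55, 0.474 and 0.513. Both ratios separated the genotypes, while that of IAA1 to IAA14 overlapped, at 0.474 to 0.655 against 0.538 to 0.615. IAA7 (log2 fold change 0.03) and IAA3 (log2 fold change -0.05) were not called. The separated ratios thus follow in part from the calls of IAA2 and IAA17 and are not separate support for them. No test was made on the ratios.

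The rest of the auxin pathway was read from the same fit over 68 genes in fixed lists, of which 57 were tested. The test called 3 higher (5.26%, against 5.28% of all features) and 1 lower (1.75%, against 3.58%), so the 4 called genes were 7.02% of those tested, near the 8.86% of all features. The 1 that fell, ARF19 (AT1G19220), an activating ARF that acts with ARF7 in lateral root formation, had 20.7, 19.4 and 18.6 CPM in Col-0 and 8.38, 8.63 and 8.03 CPM in the libraries labelled nsra/b. It was 57.3% lower (log2 fold change -1.23, SE 0.0642, edgeR adjusted p = 4.61e-16), a larger change than that of any called member, and stayed called without any single library. ARF7 and the other 3 activating ARFs tested, ARF5, ARF6 and ARF8, had log2 fold changes between -0.08 and 0.05 and were not called. Of 10 repressing ARFs, ARF11 rose, from 17.7, 19.6 and 18.4 to 23.8, 20.8 and 21.1 CPM (log2 fold change 0.23, SE 0.0558, edgeR adjusted p = 0.00368). That call was lost without Col-0 replicate 1, Col-0 replicate 3 or nsra/b replicate 1 (edgeR adjusted p = 0.0325, 0.0225 and 0.0344) and with DESeq2 (adjusted p = 0.0313).

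**Figure D4:**
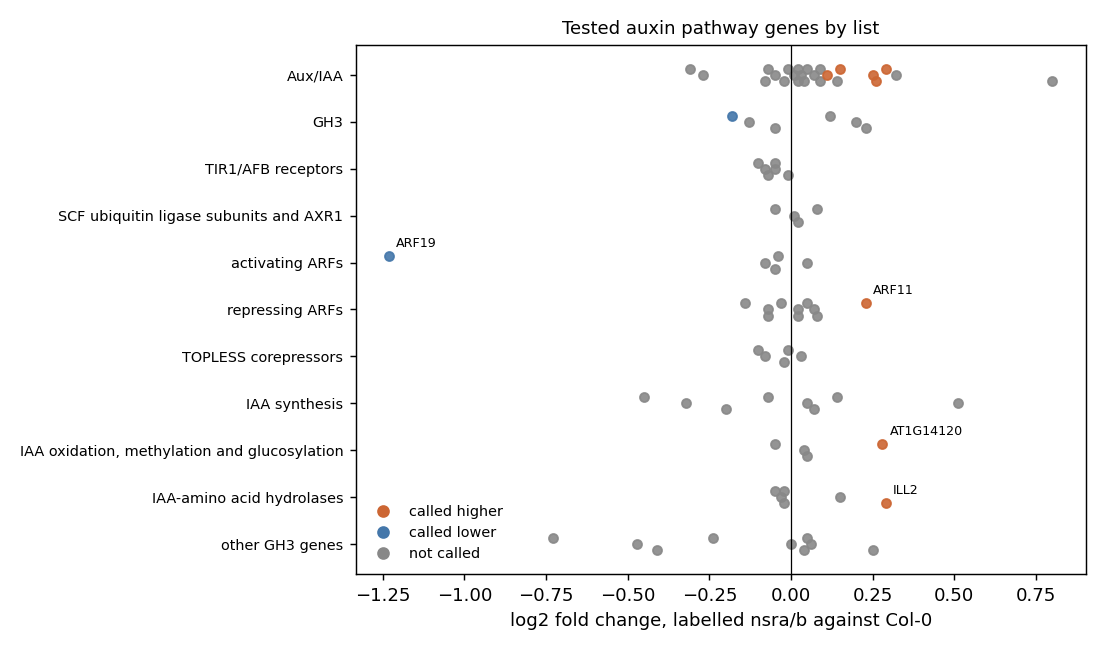
Log2 fold change, libraries labelled nsra/b against Col-0, of the tested members (top 2 rows) and of the tested genes of the other auxin pathway lists, coloured by the call and with the called genes of the other lists named. ARF19 at -1.23 stands apart from the rest, and all 6 TIR1/AFB receptors lie between -0.10 and -0.01.

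None of the 6 TIR1/AFB receptor genes, which recognise the degron, was called. All 6 had negative log2 fold changes, between -0.10 and -0.01, and the lowest edgeR adjusted p-value was 0.0698 (AFB1). Of the 6, 3 had an unadjusted edgeR p-value under 0.05, as did 5762 of all 21606 tested features. The 4 SCF and AXR1 genes and the 5 TOPLESS corepressor genes were not called either, with log2 fold changes between -0.05 and 0.08 and between -0.10 and 0.03. Of the 14 genes of IAA synthesis, 8 were tested and none was called. Among genes of IAA turnover, AT1G14120, annotated as a 2-oxoglutarate and Fe(II)-dependent oxygenase, had 38.3, 38.9 and 38.5 against 45.6, 47.2 and 47.3 CPM (log2 fold change 0.28, SE 0.0363, edgeR adjusted p = 8.19e-07). ILL2, an enzyme that frees IAA from amino acid conjugates and so acts opposite to the GH3 enzymes, had 17.1, 16.5 and 16.2 against 21.4, 20.5 and 19.1 CPM (log2 fold change 0.29, SE 0.0547, edgeR adjusted p = 2.21e-04). Both rose without overlap between genotypes. None of the 9 tested GH3 genes outside the auxin-inducible group was called.

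The make-up of the plantlets was read from marker genes beside these results. Of 10 root markers, CASP1, a gene of the root endodermis, was called higher (log2 fold change 0.31, edgeR adjusted p = 2.01e-05) and the other 9 were not called. The summed level of the list was 98.3 to 103 CPM in Col-0 and 106 to 109.5 CPM in the libraries labelled nsra/b. Without CASP1 the sums overlapped, at 75.0 to 78.6 against 76.1 to 77.4 CPM, and over the whole list 5 log2 fold changes were positive and 5 negative, the lowest being that of PLT2, a root stem cell gene (0.596 ± 0.0985 against 0.298 ± 0.0521 CPM, SD, n = 3, edgeR adjusted p = 0.0352). Of 8 leaf markers, CA1, a carbonic anhydrase, was called higher and LHCB1.3, a light-harvesting protein, lower (log2 fold changes 0.25 and -0.21). The summed leaf level was 41573 to 43551 against 40569 to 41115 CPM. LHCB1.3 was the largest term of this sum, at 15349.7 ± 442 against 13303 ± 139 CPM (SD, n = 3). Over the leaf list 3 log2 fold changes were positive and 5 negative. Of 5 flower markers, PI fell (log2 fold change -0.64, edgeR adjusted p = 2.66e-07) and the other 4, AP1, LFY, AG and AP3, had at most 8 counts in any library. The summed flower level was 9.77 to 10.5 against 6.41 to 6.93 CPM. Nearly all of it was PI, at 9.86 ± 0.32 against 6.31 ± 0.368 CPM (SD, n = 3), so this sum shows the change of 1 gene. The part of these shifts in the changes of IAA14, IAA17, IAA28 and the other called members was not tested.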

How the data were processed

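Raw read counts per gene were deposited by the authors, who quality filtered the stranded paired-end reads, aligned them with tophat, kept 1 alignment per read and counted with summarizeOverlaps (strand specific, Union mode); the build is given as TAIR10. Neither labels nor methods say whether plantlets of a genotype shared plates, so p-values measure the spread between libraries. That spread was small, with a fitted biological coefficient of variation of 0.0203, and the number of calls depends on it. For pairs of libraries, a chi-square of the counts over its degrees of freedom was 1.37 to 1.93 within a genotype and 5.17 to 6.05 between genotypes. Counting noise alone gives about 1. Libraries of a genotype thus differed by little more than counting noise, and how far independently grown plantlets would vary cannot be told from them. edgeR 4.0.16 (R 4.3.3) was run on all counts with TMM, filterByExpr (minimum count 10, minimum total 15), the quasi-likelihood test with genotype only, and Benjamini-Hochberg adjustment at 0.01. Each SE was derived from the F statistic. DESeq2 1.42.0, limma voom 3.58.1 and other alternatives are given in the closing section. TPM used the exon-union lengths of the TAIR10.1 annotation from RefSeq. Exact permutation of 3 against 3 cannot go below p = 0.1 and was not used. Members and gene lists were chosen with earlier results of these data known. Named genes were the called members, the 5 largest uncalled changes, the 6 highest by TPM, untested members and called pathway genes. GH3.3, GH3.6, GH3.17, IAA3 and IAA19 were outside the rule and were chosen after their values were seen, as were the pathway genes named without a call.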

Additional observations from a re-analysis of the deposited data

How the results depend on the processing

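IAA14, IAA17 and IAA28 were called under 13 of 14 alternative fits and ARF19 under all 14. The exception fixed the biological coefficient of variation at 0.1, in place of the fitted 0.0203, was added after seeing the data, and called 0 members in either direction, 0 pathway genes higher and 0.940% of all features. The 5 members higher became 4 with DESeq2 and 3 to 5 with 1 library left out, and 0 with Bonferroni adjustment or a log2 fold minimum of 1. The 1 member lower became 0 under DESeq2, Bonferroni and the fold minimum, 0 to 2 with 1 library left out, and 2 (with GH3.6) without the filter and at an adjusted p-value under 0.05. The 3 pathway genes higher became 1 under Bonferroni, 0 under the fold minimum and 2 to 3 with 1 library left out. The 1 lower became 3 without the filter and 1 to 2 with 1 library left out. At an adjusted p-value under 0.05 it became 5, ARF4, GH3.9, TPL and TPR1 being added. Signs turned in 4 fits of uncalled genes: with 1 library left out, log2 fold changes ranged from -0.67 to 0.01 for IAA30, from -0.06 to 0.47 for GH3.1 and from -0.03 to 0.01 for IAA4, the turned values being those without Col-0 replicate 3 and, for IAA4, also without nsra/b replicate 1. The cause was not tested.

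Same-numbered libraries had deviations from the genotype mean correlated at -0.0119, 0.0254 and 0.0558, and differently numbered ones at -0.0653 to 0.0402. Whether libraries with the same number shared a batch cannot be told from these values. With the replicate block, 5 members were higher and 2 lower, GH3.6 being added (adjusted p = 0.00333). Depth limits the members under 1 CPM, where changes of the size seen in the called genes were not detectable.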
